A study of Rattus norvegicus with 24 samples.

Results

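Trh, Sst, Ghrh and Gnrh1, which encode the hypothalamic releasing and inhibiting hormones of the pituitary other than corticotropin-releasing hormone, were followed in the rat hypothalamus after restraint and after restraint in linalool-scented air. The members were taken as every probe set whose gene symbol equals one of these names. This gave 4 of the 14217 genes measured and 5 of 31042 probe sets, because Gnrh1 has 2 probe sets and the other genes have 1 each. That rule used no measured value, but the members were chosen with earlier results of these data known.

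Thyrotropin-releasing hormone (Trh) drives pituitary release of thyrotropin and prolactin, and growth hormone-releasing hormone (Ghrh) drives release of growth hormone. Somatostatin (Sst) holds back growth hormone and thyrotropin, and gonadotropin-releasing hormone (Gnrh1) drives the gonadotropins luteinising and follicle-stimulating hormone. Neurosecretory cells of the paraventricular, periventricular, arcuate and preoptic regions release these peptides into the portal vessels of the median eminence, but Trh and Sst are also made by many hypothalamic neurons that do not project there, and Sst is widely made by inhibitory interneurons elsewhere in the forebrain.

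RNA came from 18 male Wistar rats, an outbred strain, aged 7 weeks, in 3 groups of 6 with 1 array per rat. Control rats received neither treatment. Stress rats were confined in wire mesh for 2 h, and linalool rats were confined in the same way inside a 40 L box into which 20 µL of (R,S)-linalool, a floral monoterpene alcohol, had evaporated. All rats were killed directly afterwards, and a block was cut by hand from the base of the brain between the optic chiasm and the mammillary bodies. The labels do not say how controls were held during these hours or whether the linalool-free rats sat in a box, and 1 time point was sampled. Each block holds many nuclei, so fewer cells of a type and less RNA per cell cannot be told apart in any of the values below.

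The authors normalized controls with stress rats as 1 set (the first set) and the same 6 stress arrays again with the linalool arrays as another (the second set). Every comparison stays inside its set, and controls were never set against linalool rats. Values are log2 signals per probe set. Most genes (80.9% and 81% in the respective sets) had a residual SD, the spread between arrays within groups, under 0.01 on this scale. Log2 differences of such compressed genes cannot be read as fold changes, and differences are therefore also given in residual SDs. The SE of each was 0.577 in the main fits of 6 against 6 arrays. That SE does not hold where an array was left out or a score was added to the fit. Trh and Sst were not compressed: 97.9% and 98.3% of genes, respectively, varied less than they did beside controls, and 99% and 98.4% beside linalool rats. Ghrh and both Gnrh1 probe sets were compressed. Of 12 hypothalamic marker genes fixed for the tissue check, 11 had a probe set (Agrp did not). Among them the water-balance hormone gene Avp averaged 11.81 and the melanin-concentrating hormone gene Pmch 11.89 in controls. Other markers were low: Pomc (7.43), Sim1 (6.82), Otp (6.97) and Crh (7.82) averaged below the lowest array median of 8.157 there. Pomc, Sim1 and Otp were also compressed. The mean level of the list ran from 8.90 to 9.41 in controls. Of the 14217 genes, 101 passed an adjusted p of 0.05 between stress and control (0.71%) and 4229 between linalool and stress (29.7%), both by limma with Benjamini-Hochberg adjustment. The 24 bacterial and phage control probe sets, which measure no rat gene, also differed in the linalool comparison, where 7 were higher and 2 lower by limma, against 0 in either direction between stress and control. Differences in array handling and the effect of linalool therefore cannot be told apart in the second set.

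Trh and Sst are shown with the promoter stretch around a cyclic AMP response element. Cyclic AMP signalling is known to drive both genes through this class of site. They were the members for which a search for the element or its variant listed a match. The sequences are RefSeq's on GRCr8, 5′ to 3′ on the gene's strand, each 100 bases long, with the element in capitals. The Trh stretch is chr4:126301763-126301862 on the minus strand and holds TGACCTCA, a variant of the element, from position -35 counted from the annotated start base. The Sst stretch is chr11:90461456-90461555 on the plus strand and holds the full palindrome TGACGTCA from position 2. In Sst the element thus lies past the annotated start and not upstream of it. Whether transcripts in these blocks begin at that start was not tested.
Trh promoter: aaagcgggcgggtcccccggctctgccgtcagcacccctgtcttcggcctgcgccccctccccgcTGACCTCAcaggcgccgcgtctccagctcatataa
Sst promoter: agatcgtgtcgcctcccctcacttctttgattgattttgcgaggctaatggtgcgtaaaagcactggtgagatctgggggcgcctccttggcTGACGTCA
Both strands of 33469 RefSeq promoter windows of 300 bases were searched for the same letters. TGACGTCA occurred in 1.83% of them and TGACCTCA (TGAGGTCA on the other strand) in 2.66%. A match describes letters and is not evidence of a site in use. Of the other members, Gnrh1 had no entry in the promoter table. For Ghrh the search listed no match to either sequence, so no stretch is shown.

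Restraint of 2 h was first set against no treatment. Of the 4 genes, 0 passed the test and 0 had groups that did not overlap. Across all genes 0.71% passed (0.485% higher, 0.225% lower) and 1.86% had groups that did not overlap, so a count of 0 among 4 is near the background. At an unadjusted p under 0.05 the count was also 0 by limma, and the exact permutation tests of the representative probe sets gave p from 0.385 to 0.970.

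Trh signal in controls 1 to 6 was 8.81, 7.83, 8.83, 8.71, 8.60 and 8.83, with a mean of 8.60 ± 0.388 (SD, n = 6). In stress rats 1 to 6 it was 8.43, 8.74, 8.08, 8.45, 8.52 and 8.40, with a mean of 8.44 ± 0.214 (SD, n = 6). Every stress array lay below the control median of 8.76, yet control 2 was lower than all of them, so the groups overlapped. The difference of -0.17 (SE 0.177, 95% interval -0.56 to 0.23) did not pass (limma adjusted p = 0.664, exact permutation p = 0.385, two-sided). Control 2 set much of this value: with it the difference was -0.534 residual SDs and without it -1.86, still short of the threshold (limma adjusted p = 0.146).

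Sst signal in controls 1 to 6 was 10.06, 9.32, 10.16, 10.24, 10.04 and 10.26, with a mean of 10.01 ± 0.349 (SD, n = 6). In stress rats it was 9.78, 10.25, 9.36, 9.89, 10.12 and 10.10, with a mean of 9.92 ± 0.320 (SD, n = 6). Each group held 1 low array, control 2 and stress 3, and the other 10 arrays overlapped widely. The difference was -0.10 (SE 0.190, 95% interval -0.52 to 0.32) and did not pass (limma adjusted p = 0.825, exact permutation p = 0.595). Its sign depended on single arrays, at 0.0394 residual SDs without stress 3 and -0.959 without control 2.

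Ghrh averaged 7.69 in both groups, with an SD of 0.000275 in controls and 0.000273 in stress rats. Placed around the average of all 12 arrays and scaled to residual SDs, controls ran from -1.0 to 1.82 and stress rats from -1.14 to 1.22. The groups covered nearly the same range, and the difference was -0.125 residual SDs (limma adjusted p = 0.932, exact permutation p = 0.825). Its sign turned under other scalings of the arrays, to 0.912 after quantile normalization and 1.10 after median centring. These steps moved the median difference over all genes to 0.00708 and 0.00957 on the log2 scale, many times the SD of Ghrh, so the turned sign does not describe this gene.

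For Gnrh1 the representative probe set, 1387535_at, placed controls between -1.04 and 1.75 residual SDs and stress rats between -1.38 and 1.06. The difference was 0.0223 residual SDs (limma adjusted p = 0.990, exact permutation p = 0.970). The second probe set, 1370417_at, gave another picture. Controls 1 to 6 stood at -1.45, 0.354, 0.137, -1.26, -3.08 and -1.06 residual SDs, and stress rats at 1.17, 1.56, 0.26, 2.03, 0.40 and 0.94. Only stress 3 lay below the highest control, and every stress array was above the control median. The difference of 2.12 residual SDs, or 0.000289 on the log2 scale, had an unadjusted p of 0.00376 by limma but did not pass over all 31042 probe sets (limma adjusted p = 0.138, exact permutation p = 0.00433). The probe sets of Gnrh1 thus disagreed, and which of them follows the transcript was not tested. Cell bodies that make this hormone are few and lie largely in the preoptic area and septum, next to the front edge of the dissected block.

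**Figure D1:**
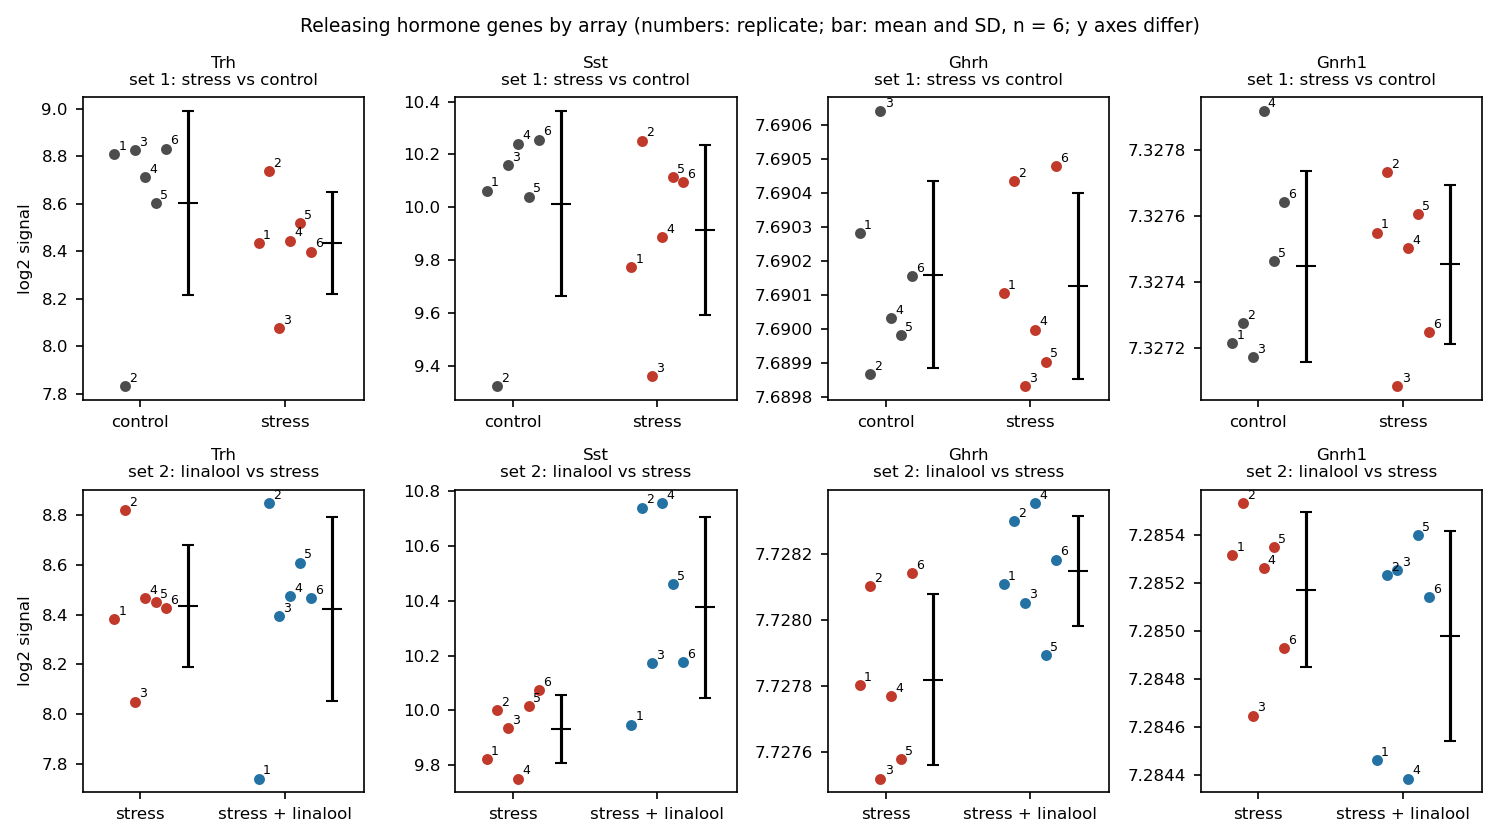
Log2 signal (y axis, a different range in each panel) of Trh, Sst, Ghrh and Gnrh1 (probe set 1387535_at) on every array, for control and stress rats of the first set above and stress and linalool rats of the second set below. Points carry the rat's number and bars give the mean and SD of 6 arrays; control 2 stands low for Trh (7.83) and Sst (9.32), and 5 of 6 linalool rats stand above every stress rat for Sst.

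Linalool under restraint was then set against restraint alone. Sst rose, and Trh, Ghrh and Gnrh1 did not pass the test. That is 1 of 4 genes against 29.7% of all genes, 1 of 4 higher against 20% and 0 of 4 lower against 9.71%, shares near the background. The groups did not overlap for 0 of 4 genes, against 14.2% of all genes.

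Sst signal in stress rats 1 to 6 of the second set was 9.82, 10.00, 9.93, 9.75, 10.01 and 10.07, with a mean of 9.93 ± 0.124 (SD, n = 6). In linalool rats it was 9.95, 10.74, 10.17, 10.76, 10.46 and 10.18, with a mean of 10.38 ± 0.332 (SD, n = 6). Linalool rats 2 to 6 were above every stress rat and linalool 1 lay within the stress range. The rise was 0.44 (SE 0.142, 95% interval 0.13 to 0.76), or 1.77 residual SDs (limma adjusted p = 0.0377, exact permutation p = 0.00866). The call was close to the threshold: it held in 4 of the 12 fits that left out 1 array, where the adjusted p ran from 0.0143 to 0.0785, and the rise itself stayed between 1.60 and 2.49 residual SDs. It was lost without any 1 of stress 1 to 5 or linalool 2, 4 or 5, with limma adjusted p of 0.0731, 0.0525, 0.0661, 0.0785, 0.0537, 0.0738, 0.0679 and 0.0695 in that order. It was also lost after quantile normalization (limma adjusted p = 0.0672).

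Markers of neighbouring tissue stood beside that rise. Of 8 thalamus markers 7 were measured, and 3 of them fell in linalool rats, namely Rora by 0.69, Ntng1 by 0.67 and Synpo2 by 0.62 on the log2 scale, while the other 4 did not pass. Those 3 were known from earlier results of these data to be lower. The mean log2 level of the list ranged from 9.81 to 10.80 in stress rats and from 9.48 to 10.16 in linalool rats. The 4 thalamus markers other than these were all below 0 in the linalool comparison, with a median of -1.33 residual SDs, and none passed by limma. Of the 11 hypothalamic markers only Npy rose (9.48 to 9.79, limma adjusted p = 0.00663), and their mean level ranged from 8.85 to 9.41 in stress rats and from 9.13 to 9.63 in linalool rats. Beside these marker counts, 9.71% of all genes passed as lower and 20% as higher. With the thalamus score in the fit the Sst difference was 0.26 (limma adjusted p = 0.404), with the score of the other 4 thalamus genes 0.30 (0.266) and with the hypothalamus score 0.30 (0.230). Beyond these fits, the part of block makeup in the Sst rise was not tested.

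Trh signal in stress rats of the second set was 8.38, 8.82, 8.05, 8.47, 8.45 and 8.43, with a mean of 8.43 ± 0.245 (SD, n = 6). In linalool rats it was 7.74, 8.85, 8.39, 8.47, 8.61 and 8.47, with a mean of 8.42 ± 0.370 (SD, n = 6). Apart from a low linalool 1 the groups covered the same range. The difference was -0.01 (SE 0.178, 95% interval -0.40 to 0.38, limma adjusted p = 0.969, exact permutation p = 0.959), and it was 0.573 residual SDs without linalool 1. With marker scores in the fit it moved away from 0, to -0.34 with the hypothalamus score (-2.06 residual SDs, limma adjusted p = 0.0676), -0.37 with the thalamus score (0.250) and -0.32 with the score of its 4 other genes (0.232), and none of these passed.

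Ghrh in the second set stood at -0.830, 0.549, -2.13, -0.978, -1.86 and 0.726 residual SDs in stress rats and at 0.566, 1.44, 0.315, 1.69, -0.408 and 0.910 in linalool rats. Every linalool array was above the stress median and 3 were above the highest stress array. The difference of 1.51 residual SDs, or 0.000329 on the log2 scale (SE 0.000124), had an unadjusted p of 0.0236 by limma and did not pass over all genes (adjusted p = 0.0711, exact permutation p = 0.0260). It passed without stress 2 (limma adjusted p = 0.0404), without stress 6 (0.0343) or without linalool 5 (0.0499). Median centring of the arrays bears on no single compressed gene, because 13220 of the 14217 genes then passed, 95.3% of them higher.

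Gnrh1 differed by -0.503 residual SDs at 1387535_at (limma adjusted p = 0.546, exact permutation p = 0.392) and by -0.464 at 1370417_at (limma adjusted p = 0.595 over all probe sets, exact permutation p = 0.450). The value at 1387535_at varied widely between settings and passed in none that left the arrays' levels as deposited. It was -1.68 with the hypothalamus score in the fit (limma adjusted p = 0.123), -1.92 with the thalamus score (0.147) and -1.83 with the score of its 4 other genes (0.113), but 0.351 after quantile normalization (0.890). Median centring, which shifted compressed genes together, gave 1.44. Linalool 1 and 4 were lowest at 1387535_at, with -1.59 and -1.79 residual SDs, and the other 4 linalool rats lay inside the stress range of -1.11 to 1.18.

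Because the 6 stress arrays were deposited in both sets, the effect of the normalization alone can be read from them, as a description, since both values of a pair come from 1 array. For Trh the 6 values correlated between sets at r = 0.979 and the largest change was 0.0822 in stress 2. However, r was 0.411 without the 2 arrays farthest from the median of the first set. For Ghrh r was 0.990, and for the Gnrh1 probe sets 0.997 and 0.922. For Sst r was 0.425 and Spearman's rho 0.543, where the median over all genes was 0.971 and 1.43% of genes had a lower r. Stress 3 read 9.36 for Sst beside controls and 9.93 beside linalool arrays, a change of 0.571 in the value of 1 array, and without the 2 arrays farthest from the median r was 0.869. Among these rats the SD of Sst was 0.320 beside controls but 0.124 beside linalool arrays, a ratio of 2.59, and the smaller of these entered the linalool test.

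**Figure D2:**
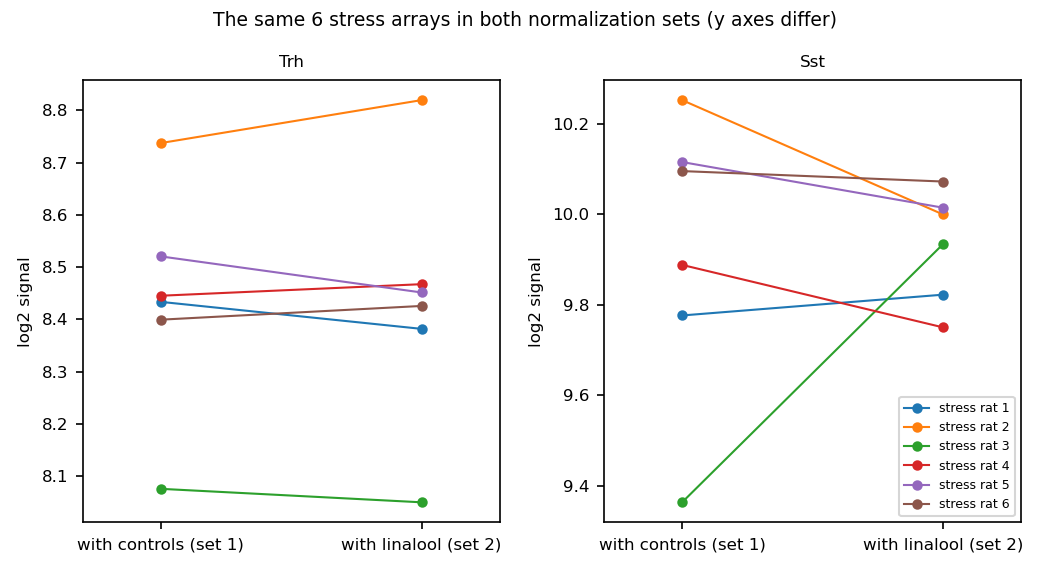
Log2 signal (y axis, ranges differ) of Trh and Sst for the same 6 stress arrays when normalized with controls (left of each panel) and with linalool arrays (right), 1 line per rat. The order of rats changes for both genes. For Sst stress 3 goes from 9.36 to 9.93, while for Trh the largest change is 0.0822.

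Trh and Sst varied together between rats in the first set. After subtraction of group means, r over the 12 arrays was 0.921 (permutation p = 0.00114 within groups, 0.0137 adjusted over the 12 relations between the 4 genes and 2 sets) and Spearman's rho 0.804 (adjusted permutation p = 0.0262). The relation held within controls (r = 0.967) and within stress rats (0.908). It leaned on control 2 and stress 3, where both genes were low, and r was 0.614 without the 2 arrays farthest from the median of Trh. In the second set r was 0.643 (permutation p = 0.0376, adjusted 0.145) and rho 0.601, with 0.168 within stress rats and 0.781 within linalool rats, and 0.505 without the 2 farthest arrays. None of the other 10 relations passed the adjustment; the next highest was Trh with Gnrh1 in the second set (r = 0.700, adjusted permutation p = 0.0835). Both values of a pair come from the same RNA, so anything that differs between blocks enters both.

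**Figure D3:**
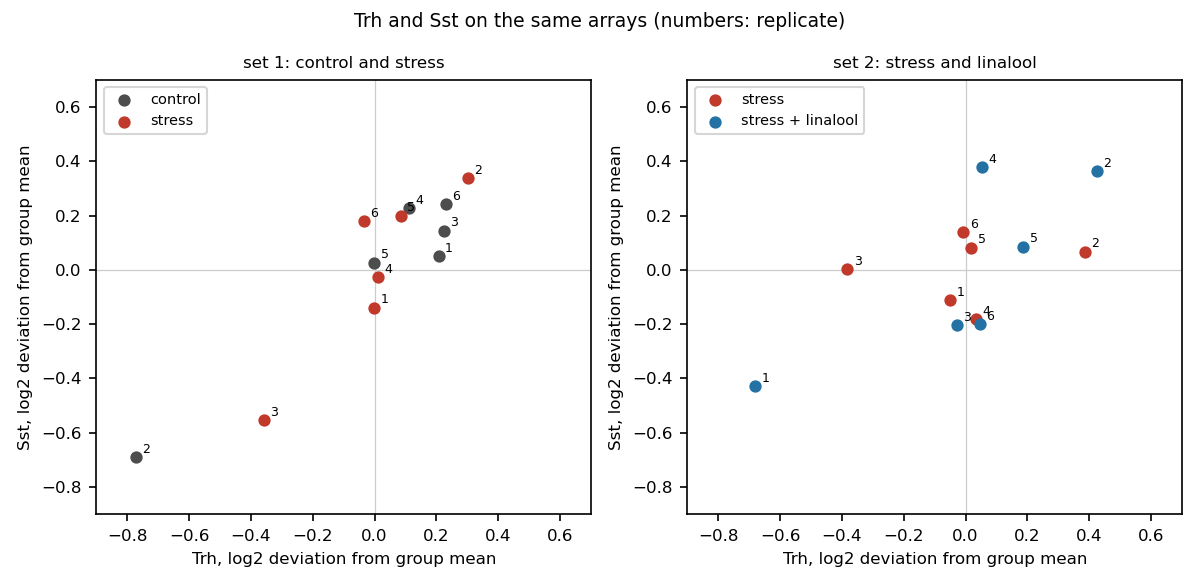
Deviation of Sst from its group mean (y axis, log2) against that of Trh (x axis, log2) on the same arrays, with control and stress rats on the left and stress and linalool rats on the right, each point numbered by rat. In the first set control 2 and stress 3 lie low for both genes (r = 0.921), and in the second set the points are more scattered (r = 0.643).

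The members were also set against marker scores of 10 regions or cell types, each score being the mean of a list's genes in residual SDs, which gave 80 relations over both sets. Trh followed the hypothalamic markers in both sets, at r = 0.846 (adjusted permutation p = 0.0259) and 0.863 (0.0327), with rho of 0.727 and 0.741 that did not pass (adjusted permutation p = 0.0718 for each). The r held within groups (0.831 in controls and 0.968 in stress rats, then 0.973 in stress and 0.819 in linalool rats). It also held without the 2 farthest arrays (0.808 and 0.803), which for these relations are those farthest from the median of the marker score. Both sets hold the same 6 stress arrays, on which Trh correlated between sets at r = 0.979. The second set is therefore not an independent repeat of the first. Trh also followed other lists. With the interneuron markers, genes of inhibitory neurons throughout the forebrain (Npy is in both lists), r was 0.626 in controls and stress rats (adjusted permutation p = 0.124, rho 0.839 with 0.0200) and 0.831 in stress and linalool rats (0.0259, rho 0.874 with 0.0172). With the preoptic and septal markers it was 0.748 (0.140) and 0.778 (0.0327, rho 0.790 with 0.0262). Without the 2 farthest arrays r was 0.584 and 0.674 for the interneuron markers, but -0.0744 and 0.863 for the preoptic and septal markers. The relation of Trh was thus not particular to the hypothalamic list, although that with the preoptic and septal list rested on 2 arrays in the first set. Sst followed the hypothalamic markers at r = 0.823 in the first set (adjusted permutation p = 0.0327), where rho was 0.734 and did not pass (0.0734), and at 0.473 in the second (0.320). With the interneuron markers Sst had r = 0.714 (0.0910) and rho = 0.902 (0.0172) in the first set, and r = 0.617 (0.152) and rho = 0.552 (0.212) in the second. Against the thalamus markers Sst had r = -0.660 (adjusted permutation p = 0.124) and -0.416 (0.326), neither of which passed. Gnrh1, at 1387535_at, was lower where the thalamus score was higher in the first set (r = -0.829, adjusted permutation p = 0.0327, rho -0.797 with 0.0718) and not past the threshold in the second (-0.620, 0.140). It also went with the striatum score at 0.833 in the first set (0.0259, rho 0.720 with 0.0755) and with the preoptic and septal score at 0.683 (0.124) and 0.725 (0.0503). No relation of Ghrh passed. The marker scores varied between blocks within every group, and whether block makeup had a part in the Trh, Sst and Gnrh1 values was not tested.

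**Figure D4:**
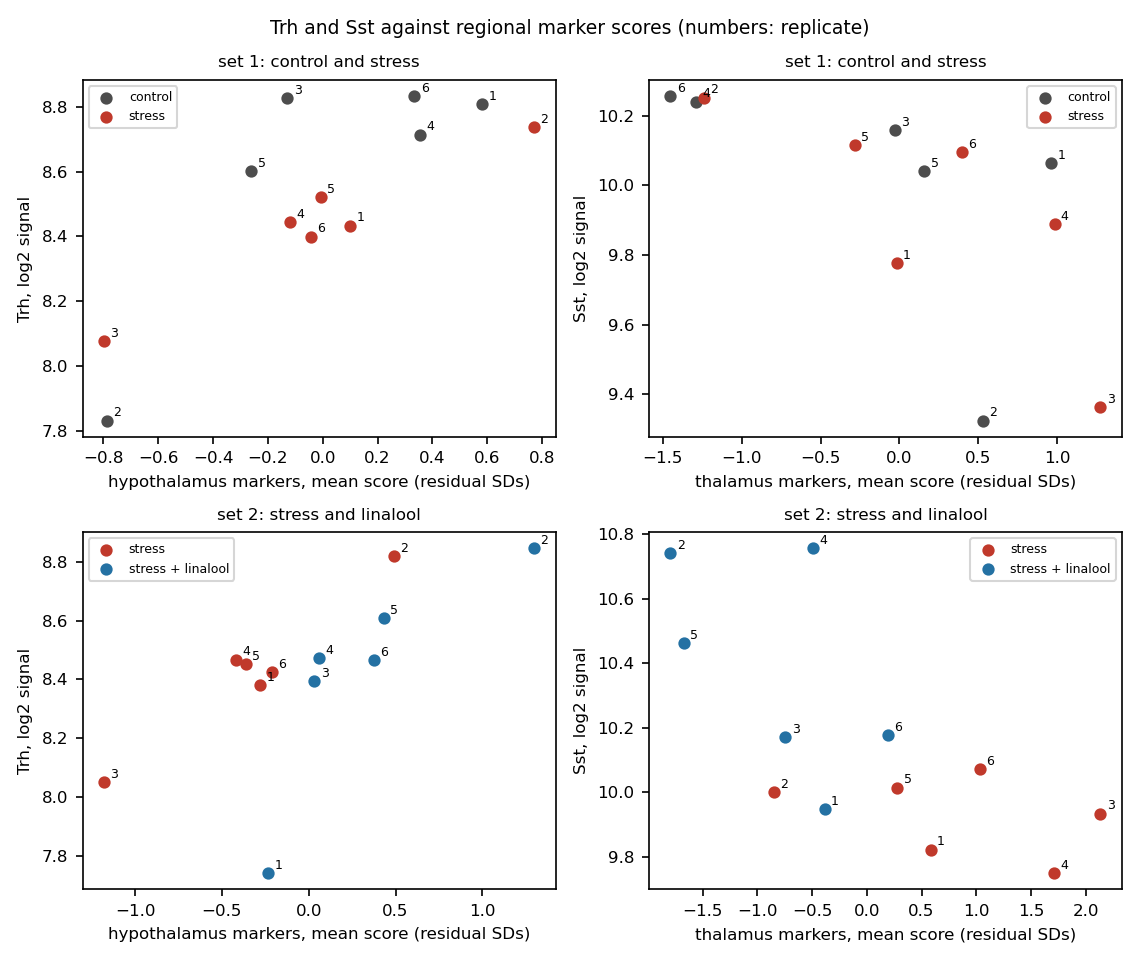
Log2 signal of Trh against the hypothalamic marker score (left column) and of Sst against the thalamus marker score (right column), both scores in residual SDs, for the first set above and the second below, with each point numbered by rat. Trh is high where the hypothalamic score is high in both sets (r = 0.846 and 0.863), which share the 6 stress arrays. Linalool rats lie mostly at low thalamus scores (-1.80 to 0.194, against -0.850 to 2.14 in stress rats).

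Likeness to single genes was measured as the mean of the within-set r, over 12 arrays in each set after subtraction of group means, among 14216 other genes. Closest to Trh were Gal, which encodes the neuropeptide galanin (r = 0.946 and 0.975), Nkx2-1, a transcription factor of the developing ventral hypothalamus (0.943 and 0.936), and Calcr, the calcitonin receptor gene (0.912 and 0.959). Nkx2-1 is among the hypothalamic markers and Gal among the preoptic and septal markers. These likenesses and the relations of Trh to those scores are therefore not separate results. In all 42 genes reached an r of 0.8 with Trh in both sets. Closest to Sst were Trh (0.921 and 0.643), Minar2 (0.845 and 0.717) and Tsga10 (0.762 and 0.793), and 0 genes reached 0.8 in both. Closest to Gnrh1 were Ngfr, a neurotrophin receptor gene of basal forebrain neurons (0.907 and 0.862), Irak1bp1 (0.917 and 0.823) and Sh2d5 (0.921 and 0.815), with 11 genes at 0.8 or more in both. For Ghrh they were Or1n1, an odorant receptor gene (0.802 and 0.745), Smpd4 (0.783 and 0.732) and Six6, a homeobox gene of the developing hypothalamus (0.715 and 0.795), with 0 at 0.8 in both. The points share arrays and normalization, and the genes were picked for these values, so no test is given.

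The genes around these hormones were described in 6 lists with 53 genes, of which 45 had a probe set of their own. Between stress and control 1 of 45 fell and 0 rose (2.22%, beside 0.71% of all genes), and the median difference was -0.215 residual SDs, beside 0.110 over all genes. Between linalool and stress 5 rose and 6 fell (24.4%, beside 29.7%), and the median was 0.311, beside 0.223. In the first comparison 28 of the 45 were compressed and in the second 29. The linalool calls depended on the scaling: of the 11 genes called under linalool, Ncoa1 was the only one still past the threshold after quantile normalization (limma adjusted p = 0.000588). The sign turned for Thop1, Npffr1, Pou3f2 and Ghr after that step.

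Of 8 receptor genes for the 4 hormones, 0 passed after restraint. Sstr2, a somatostatin receptor, stood 1.66 residual SDs higher (limma adjusted p = 0.208) and Ghrhr, the receptor for growth hormone-releasing hormone, 1.28 (0.304). Under linalool 1 of 8 rose, Sstr3, another somatostatin receptor, by 2.30 residual SDs with no overlap between groups (limma adjusted p = 0.0130). Sstr1, a further somatostatin receptor, did not pass at its representative probe set (1.17 residual SDs, limma adjusted p = 0.149), while 1 of its other probe sets rose by 3.22 (0.00299 over all probe sets) and another stood at 0.566 (0.512).

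Processing genes cut and modify the precursors. After restraint 0 of 7 passed; the prohormone convertase gene Pcsk2 differed by 0.09 on the log2 scale (limma adjusted p = 0.643) and Pcsk1n, which encodes a convertase inhibitor, by 0.06 (0.646). Under linalool Scg5, a chaperone of that convertase, rose by 0.08 (limma adjusted p = 0.0451), and Cpe, carboxypeptidase E, fell by 1.99 residual SDs (0.0373).

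Of 5 peptidase genes, 0 passed after restraint. Trhde, the enzyme that breaks down thyrotropin-releasing hormone outside cells, differed by -1.95 residual SDs (limma adjusted p = 0.163; 0.656 residual SDs after quantile normalization), and Pgpep1, which removes its pyroglutamate, by -0.18 on the log2 scale (0.220). Under linalool Prep, prolyl endopeptidase, rose by 2.96 residual SDs with no overlap (limma adjusted p = 0.00393), and Thop1, an oligopeptidase that cleaves gonadotropin-releasing hormone, fell by 1.74 (0.0455).

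Thyroid hormone feeds back on Trh. Of 8 genes of that control, 1 fell after restraint: Slco1c1, a thyroxine transporter of brain capillaries and choroid plexus, went from 10.75 ± 0.0991 to 10.50 ± 0.0667 (SD, n = 6 each), a difference of -0.25 (SE 0.0479, limma adjusted p = 0.0492). It kept this direction but did not pass after quantile normalization (limma adjusted p = 0.0580) or median centring (0.0778). Meningeal markers moved beside it: their mean score ran from -1.04 to 2.30 in controls and from -0.965 to -0.414 in stress rats, and 0 of 9 passed by limma, although 7 had an unadjusted p under 0.05. With that score in the fit 0 of the 14217 genes passed by limma (1177 at an unadjusted p under 0.05). Under linalool Ncoa1, a coactivator of nuclear receptors, fell from 10.81 ± 0.0515 to 10.64 ± 0.0321 (SD, n = 6 each), by 0.17 (SE 0.0243, limma adjusted p = 0.000785), with no overlap. Another Ncoa1 probe set also fell, at -3.83 residual SDs (limma adjusted p = 0.00114 over all probe sets), while a further one did not pass (-1.04, 0.211). Ncor1, a corepressor of thyroid hormone receptors, fell by 1.91 residual SDs (0.0281), and 2 further Ncor1 probe sets also fell. Thrb, the receptor gene central to feedback on Trh, rose by 1.95 residual SDs at its representative probe set (limma adjusted p = 0.0267), but its 3 other probe sets fell, to differences of -3.68, -1.99 and -1.86 (adjusted p = 0.00154, 0.0266 and 0.0359 over all probe sets), so no direction is given for it. Ncoa1 was compressed in the first set (SD 0.000117 in controls) and not in the second.

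Of 11 genes that act on Gnrh1 or Ghrh neurons, 0 passed after restraint. Ghsr, the ghrelin receptor, stood 2.35 residual SDs higher with no overlap (limma adjusted p = 0.105), and Tacr3, the neurokinin B receptor, 1.96 (0.159). Under linalool Npffr1, the receptor for gonadotropin-inhibitory peptide, fell by 2.35 residual SDs (limma adjusted p = 0.0116) and Ghr, the growth hormone receptor, rose by 1.93 (0.0280).

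Of 6 transcription factor genes that specify these neurons, 0 passed after restraint, with Otp at -1.70 residual SDs (limma adjusted p = 0.201; 0.757 after quantile normalization) and Dlx1 at -0.25 on the log2 scale (0.648). Under linalool Pou3f2, a factor of paraventricular neurons, fell by 1.75 residual SDs (limma adjusted p = 0.0452). The probe sets of Arnt2, a partner of basic helix-loop-helix factors, disagreed: the representative one stood at 1.15 residual SDs (limma adjusted p = 0.157) and the other at -3.67 (0.00154 over all probe sets). Among the inputs, 1 of the other probe sets of Lepr, the leptin receptor gene, also passed, at -1.71 (0.0497), while its representative one stood at 0.131.

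**Figure D5:**
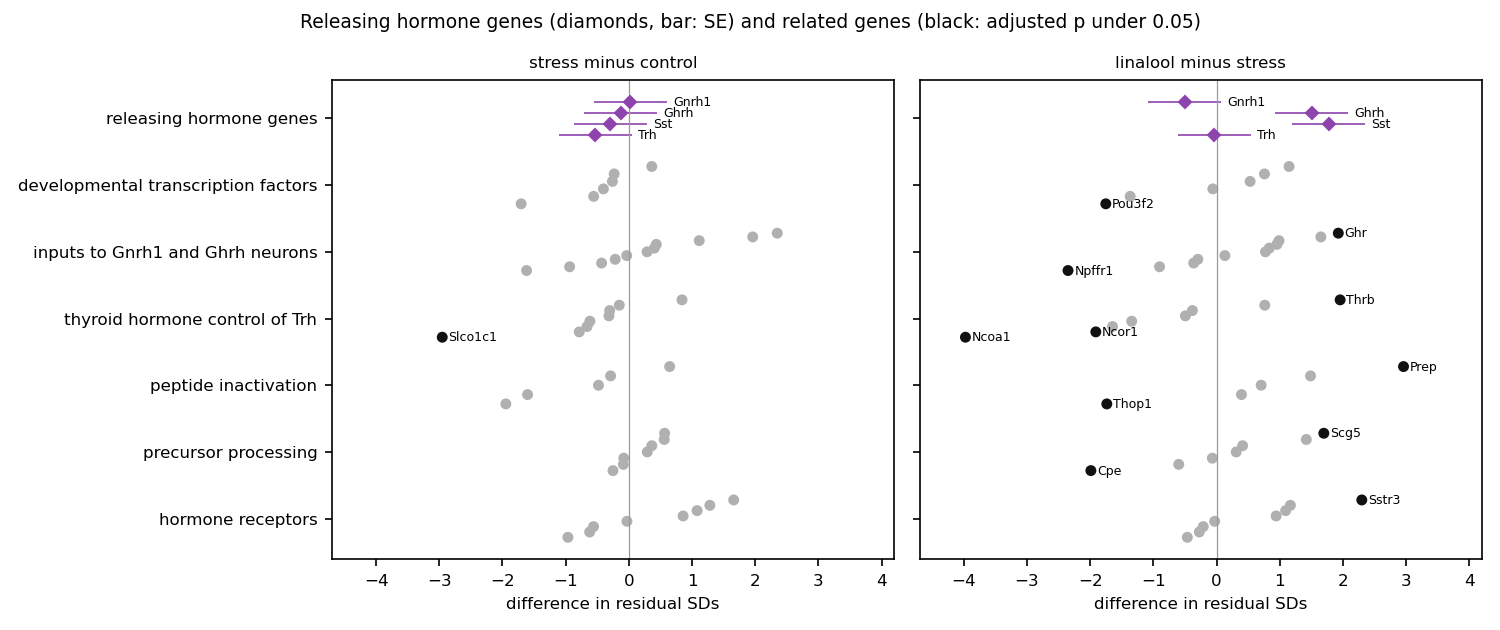
Difference in residual SDs (x axis) of the 4 hormone genes (diamonds with SE bars) and of the 45 related genes by list (1 point per gene), for stress minus control on the left and linalool minus stress on the right; black and named points have an adjusted p under 0.05. After restraint only Slco1c1 is black, and under linalool 11 genes are, on both sides of 0.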

How the data were processed

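Hypothalamic blocks of 18 rats gave 1 array each, and 24 value columns, since stress arrays appear in both sets. The authors deposited log2 signals per probe set; per the labels' protocols 500 ng of total RNA per block was turned into biotinylated cRNA for a 3' array. The summarization and normalization methods are not given in the sources used here, and the values' range was the basis for reading them as log2. Column medians ran from 8.157 to 8.19 in the first set and from 8.131 to 8.153 in the second.

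Of 31099 probe sets, 57 array controls were left out, and 20826 had 1 gene symbol, 436 several and 9780 none listed. Each of the 14217 genes was represented by its probe set of highest average level across columns. Models were fitted per set by limma 3.58.1 under R 4.3.3 (two-sided, Benjamini-Hochberg over all genes, threshold 0.05), beside exact permutation tests over 924 splits (smallest p 0.00216). The number of arrays limits the precision. The labels describe separate rats, so p-values measure the spread between arrays of different rats. Array controls were adjusted over the 57. The fit was tested on simulated data.

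All 4 members were named, and per list the genes past the threshold, up to 4, or otherwise the 2 with the smallest p; likeness names the 3 genes closest to each member. The members and lists were chosen with earlier results of these data known. Alternatives were quantile normalization, median centring, other probe set rules, a filter on low genes, a replicate block, left-out arrays and marker scores as covariates; the thalamus and hypothalamus scores were added after seeing the data.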

Additional observations from a re-analysis of the deposited data

Results flagged for a closer look

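Of 20 sets of 6 arrays (the 5 probe sets in 4 groups), 2 held an array far from the other 5, where chance gives about 1 in 20. Both were control 2, with a Trh signal of 7.83 and an Sst signal of 9.32, each the lowest of the controls. The gap to the next control took 0.770 of the whole range for Trh and 0.769 for Sst of these 6 arrays, beyond the 95% critical value of Dixon's gap test. Control 2 also had the lowest hypothalamic marker score of the controls, -0.786 residual SDs; whether that had a part in its low Trh and Sst was not tested.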

How the results depend on the processing

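All values here are in residual SDs unless said to be counts. In both comparisons Trh kept its sign and did not pass in every alternative other than the loss of single arrays, over 11 settings for stress (-0.853 to -0.0706) and 9 for linalool (-2.06 to -0.0107). Sst under stress was 0.182 without controls 4, 5 and 6 and 0.300 with the meninges score in the fit. Ghrh under stress was 0.912 after quantile normalization and 1.10 after median centring. Gnrh1 under linalool was 0.351 and 1.44 after the same steps. The Sst rise under linalool no longer passed after quantile normalization (1.75) or with the thalamus score (1.09), the score of its 4 other genes (1.24) or the hypothalamus score (1.29); Ghrh under linalool passed after median centring (1.52) and by the unadjusted exact permutation test (1.51). Median centring shifted compressed genes together (13220 of 14217 passed under linalool), so its values for Ghrh and Gnrh1 describe the shift of the arrays.

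Leaving out 1 array gave ranges for stress of -1.86 to -0.315 (Trh), -0.959 to 0.0394 (Sst), -0.405 to 0.270 (Ghrh) and -0.190 to 0.449 (Gnrh1). For linalool they were -0.329 to 0.573, 1.60 to 2.49, 1.32 to 1.99 and -0.834 to -0.219 in that order. The count of genes past the threshold ran from 26 to 133 for stress and from 3548 to 4187 for linalool.

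The labels share replicate numbers across groups. Correlations of same-numbered arrays ran from 0.0866 to 0.226 for control with stress and from -0.110 to 0.194 for stress with linalool, and 2 of 6 and 1 of 6 correlated best with their own number, so the numbers were not taken as pairs. With the replicate block the stress count was 9, the linalool count 3254, Sst under linalool 1.72 (limma adjusted p = 0.0809) and Ghrh under linalool 2.28 (0.0414).

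The stress count of 101 became 55 after quantile normalization, 61 after median centring, 172 over all probe sets, 2 without controls 4, 5 and 6, and 0 with the meninges score. The linalool count of 4229 became 1573, 13220 and 7763 under the first 3 of these, 1619 with the thalamus score, 2307 with the score of its 4 other genes and 2446 with the hypothalamus score. Of the linalool calls 67.4% were higher, 95.3% after median centring and 56.7% over all probe sets. The filter on low genes left Sst alone of the 4 members and gives no value for the others. Compressed signals limit what Ghrh and Gnrh1 can show.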
